A study of Mus musculus with 4 samples.

Results

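The miRNA families miR-297, miR-466, miR-467 and miR-669 were followed through small RNA libraries of resting mouse macrophages. Members were taken by name, as every deposited line whose precursor carries 1 of these 4 family numbers. The rule used no measured value, although earlier results of these data were known when it was set. These were 157 of the 2129 lines of the table, from 82 of its 1235 precursors, and they gave 80 of its 1979 mature miRNAs. The miR-466 family had 31 mature names, miR-669 had 30, miR-467 had 13 and miR-297 had 6.

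The cells were bone marrow-derived macrophages (BMDMs), that is, marrow cells matured in macrophage colony-stimulating factor (M-CSF), from mixed 129/B6 mice aged 6 to 7 months. Marrow was plated at 85000 cells per cm2, and culture lasted 8 to 9 days with M-CSF at 10 ng/ml. The cells were then kept for 16 h in medium free of lipopolysaccharide. Wild-type cultures from the same lines gave the libraries WT A and WT B, cultures null for mir-146a gave 1 library (KO), and cultures homozygous for the 3′F allele, in which the 3′ part of miR-146a is exchanged, gave 1 library (3′F). The mutant alleles were made in embryonic stem cells of the V6.5 line and then backcrossed, the labels name 3 mice per genotype, and whether a library pools mice was not stated. Where 4 values stand in a row below, their order is WT A, WT B, KO, 3′F.

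A large group of these hairpins lies within an intron of Sfmbt2, a Polycomb-related gene that is imprinted, expressed from the paternal copy, and high in trophoblast and placenta. The cluster is known from rodents and grew by repeated duplication, so that many hairpins are near copies of each other. Each hairpin can be cut by Drosha and Dicer into a 5′ arm (5p) and a 3′ arm (3p), and near copies can yield the same mature RNA from several places in the genome. A short read from such an RNA cannot be placed at a single hairpin.

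Positions were taken from the GRCm38 annotation by precursor name, since the build behind the counts was not given in the sources used here. Of the 82 precursors, 81 were matched, and the exception was mir-466a. A group of 71 lay in intron 10 of an annotated Sfmbt2 transcript of 23 exons (intron at chromosome 2, 10461473 to 10523944), all on the plus strand, and spanned 51617 bp from 10466663 to 10518279. They comprised 29 miR-669, 23 miR-466, 14 miR-467 and 5 miR-297 hairpins, and the same intron held 48 further annotated miRNA genes that were not matched to a member. The middle of the cluster was a repeat. The order miR-467, miR-466, miR-669 occurred in 12 uninterrupted runs, and neighbors among the 10 mir-467a hairpins started a median of 2462 bp apart (range 2413 to 4880 bp). The other 10 matched precursors lay outside Sfmbt2, among them mir-466i on chromosome 13.

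RefSeq mature sequences (GRCm38.p6) were matched for 8 of the 80 members, all from precursors outside the Sfmbt2 intron. They are shown because they let the dinucleotide repeats under these names be read directly. Letters run 5′ to 3′, and capitals mark the seed, bases 2 to 8.
miR-466i-3p: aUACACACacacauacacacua
miR-466j: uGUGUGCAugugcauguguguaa
miR-466k: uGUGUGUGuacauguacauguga
miR-466q: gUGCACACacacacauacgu
miR-467f: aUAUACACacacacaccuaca
miR-467g: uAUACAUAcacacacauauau
miR-467h: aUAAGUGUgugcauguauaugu
miR-669n: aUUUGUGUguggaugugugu

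Every one of the 8 held a stretch of 5 bases in which U alternates with G (written UGUGU when it starts with U), or in which C alternates with A (written CACAC when it starts with C). Stretches starting with either base were searched, they may overlap, and only the mature strand was read. Such a stretch was found in 136 of the 1674 distinct mature mouse sequences of that table (8.12%). The 8 seeds differed from each other. In these libraries miR-466i-3p alone among the 8 reached 3 counts, with 8.5, 9, 10.75 and 13 counts. The names miR-466q and miR-669n were listed at 0 in every library.

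The libraries summed to 17073442 (WT A), 11410940 (WT B), 19087640 (KO) and 16194595 counts (3′F). Levels are given as RPM, reads per 1000000 counts of the library, and 3 counts, taken as the most that a count of 0 allows (the one-sided 95% Poisson limit), corresponded to 0.176, 0.263, 0.157 and 0.185 RPM. Intervals of other levels are 95% Wilson intervals and cover counting error only, because reads of this protocol are not independent molecules. The targeted miRNA followed the labels: miR-146a-5p stood at 6253 and 5485 RPM in wild-type cells and at 13.4 in the null and 6.64 in the 3′F library. The line of the exchanged sequence, miR-146swap-5p, held 171 counts in 3′F and 0 in each of the other libraries. This count cannot be set against that of miR-146a-5p, since the paper warns that ligation varies with sequence, sometimes by orders of magnitude. By quantitative PCR, the paper found similar absolute levels of the 3′F and wild-type miRNA in most tissues and cells examined.

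Markers of the cultured cell type were mostly abundant. Most abundant of all miRNAs was miR-21a-5p, which is high in myeloid cells, with 379027, 341385, 333652 and 354381 RPM. It made up nearly all of the sum of the 6 listed macrophage and myeloid miRNAs, which was 382669, 344209, 336706 and 357230 RPM. The myeloid miRNA miR-223-3p had 1574, 1466, 1636 and 1503 RPM. The level of miR-142a-3p was 1721 RPM in WT A and 1121 in WT B, with 1115 in KO and 1071 in 3′F. The lowest of the list, miR-511-5p, had 2.17, 1.58, 2.78 and 1.17 RPM. The 7 listed miRNAs of pluripotent and trophoblast stem cells, from the miR-290 and miR-302 clusters, were at 0 counts in all 4 libraries, which allows at most 3 counts of each per library.

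Some miRNAs listed as markers of other cell types differed in level between libraries, and which cells they came from was not tested. The sum of the 4 erythroid miRNAs was 170 RPM in WT A and 159 in WT B but 70.4 in the null library and 80.3 in 3′F, with miR-486b-5p the most abundant of them. The sum of the 3 lymphocyte miRNAs was 1240, 1283, 1071 and 1243 RPM, with miR-342-3p at 749, 732, 464 and 754 RPM and miR-181a-5p at 489, 548, 605 and 488 RPM, the former lowest and the latter highest in KO. The lymphocyte miRNA miR-150-5p had 2.93, 2.80, 2.51 and 1.54 RPM. The sum of the 5 endothelial and stromal miRNAs was 22.3, 22.7, 23.3 and 19.7 RPM and joined members that differed in opposite directions. The most abundant was miR-126a-3p at 10.7, 9.82, 13.1 and 10.3 RPM, and miR-145a-5p had 3, 2, 0 and 0 counts. The level of miR-143-3p was 4.74, 4.91, 2.10 and 2.22 RPM, lower in both mutants than in either WT library. That of miR-199a-3p was 6.31, 7.42, 7.26 and 6.42 RPM, and that of miR-126a-5p 0.410, 0.351, 0.838 and 0.741 RPM. The part of these cell types in the levels below was not tested, and in such bulk RNA fewer cells of a type and less RNA per cell cannot be told apart.

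About as many members were detected in each genotype. At least 3 counts were reached by 39 of the 80 members in WT A and by 37 in each of the other libraries. A set of 34 members (42.5%) reached 3 counts in all 4 libraries, against 29.0% of the 1899 other miRNAs. Some of these members, such as miR-669a-5p and miR-669p-5p, hold the same divided reads, so their detection was not independent. The 13 members at 0 throughout comprised 11 of miR-669 and 2 of miR-466. Another 9 members were listed above 0 but under 1 count in every library, so that a listed value alone did not stand for a read of that member.

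Fractional counts were more frequent among the lines of these families than among those of most other miRNAs. A count was taken as whole within 0.001. Of the member lines above 0, 78.8% were not whole in WT A, and 82.2%, 86.4% and 88.5% in WT B, KO and 3′F. The shares over the lines of all other miRNAs were 15.7%, 14.6%, 12.6% and 16.0%. Other miRNAs that also occupied several lines came closer, with 73.6%, 59.8%, 56.1% and 78.0%. Of the members' counts, lines with a fraction carried 42.5%, 57.6%, 59.3% and 97.2%, against 81.9%, 78.5%, 81.5% and 63.5% of the counts of all other miRNAs, so that by counts the members had the lower share in 3 of the 4 libraries. The lines of miR-297 were less often fractional than those of the other families in 3 libraries, with 40%, 44.4%, 88.9% and 44.4%. These shares turned on few values, since miR-669c-5p had 710.5 counts in 3′F and whole counts in the other libraries, and miR-467a-5p had a whole 64 counts per line in WT A. Without miR-669c-5p the shares were 59.5%, 81.5%, 89.2% and 96.3%, so that the members' share was then the lower one in WT A alone.

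**Figure D1:**
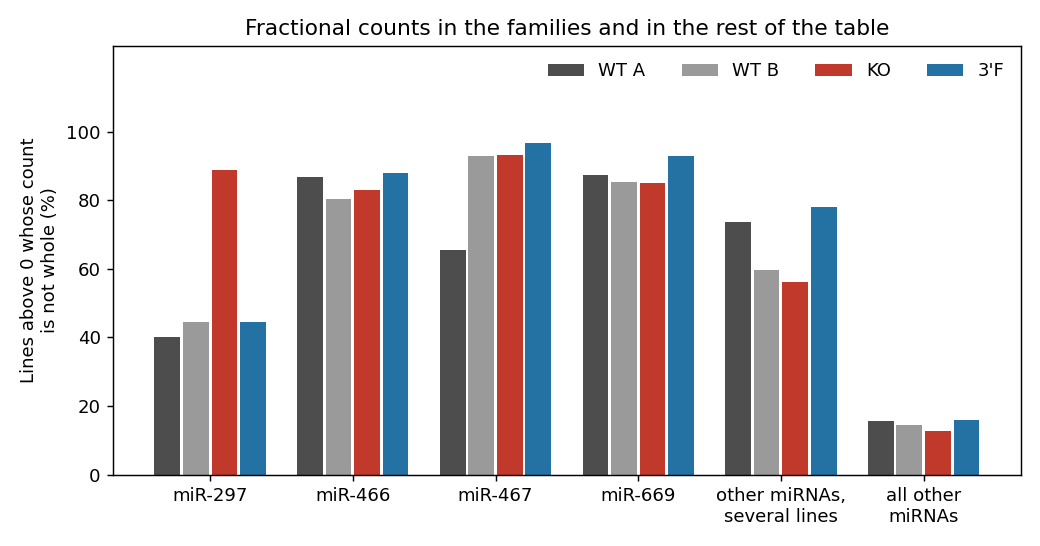
Share of lines above 0 whose count was not whole (y axis, percent), for each family, for the other miRNAs with several lines and for all other miRNAs (x axis), with 1 bar per library. The miR-466, miR-467 and miR-669 bars lie between 65.5% and 96.7%, those of miR-297 between 40% and 88.9%, and those of all other miRNAs between 12.6% and 16.0%.

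Identical lines showed how reads had been divided. The name miR-669a-5p occupied 12 lines and miR-669p-5p 2 lines, and each of these 14 lines held the same 12.86, 10.71, 10.36 and 11.78 counts. Multiplied by 14, these values lie within rounding of 180, 150, 145 and 165 reads. In the whole table, 64 miRNAs had exactly 2 lines. Of their single values under 1000, 38.3% were whole within 0.011, against 79.5% of the sums of both lines under 2000. The lines of a mature miRNA were therefore summed, which counts each divided read once.

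Among the members, 14 sets of lines carried equal values in each of the 4 libraries and were above 0 in at least 1 of them, and they took in 90 lines. In 8 of these sets the lines bore more than 1 miRNA name, 18 names in all. The 5p names of miR-669a and miR-669p could not be told apart, nor could the 3p names of miR-669a and miR-669o over 12 lines. The 3p names of miR-466b, miR-466c and miR-466p shared 12 identical lines, and those of miR-297a, miR-297b and miR-297c shared 4. Such names hold the same reads and are not independent measurements. The 10 lines of miR-467a-5p were likewise equal to each other, at 64, 40.55, 62.03 and 78.68 counts per line.

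**Figure D2:**
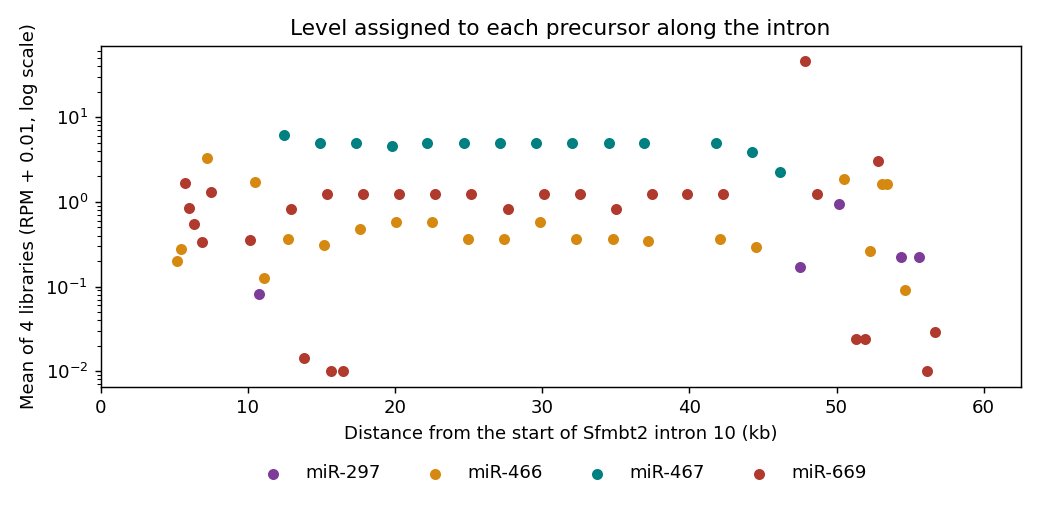
Mean level over the 4 libraries assigned to each of the 71 precursors of the intron (y axis, RPM + 0.01, log scale) against distance from the start of intron 10 of Sfmbt2 (x axis, kb), colored by family. The mir-467a copies form a level row at 5.02 RPM each, since each held an equal part of their shared reads, and mir-669c stands alone at 45.6 RPM.

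The members together took up 0.0150%, 0.0170%, 0.0136% and 0.0173% of the counts. The 71 hairpins of the Sfmbt2 intron received nearly all of it, with 147.8, 167, 132 and 170 RPM. The 10 precursors outside the gene received 2.01, 2.19, 3.22 and 2.96 RPM. Both values depend on the division of reads, since names of both places share lines.

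A pair of names, miR-669c-5p and miR-467a-5p, made up 53.6%, 50.3%, 57.5% and 53.4% of the members' counts. Levels of different miRNAs within a library also depend on how well each end sequence is ligated to the adapter, so their order is an order of counts. The first of the pair, miR-669c-5p, comes from a single hairpin on chromosome 2 (10509296 to 10509404, plus strand) and ranked 161 in the table by mean level. Its levels were 43.0, 49.9, 45.5 and 43.9 RPM, and both mutants lay between the WT libraries. Its opposite arm, miR-669c-3p, was at 0 in all 4 libraries, which allows at most 3 counts in each.

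Both miR-467a arms ranked the genotypes alike. The 5p arm, summed over 10 lines, stood at 37.5 and 35.5 RPM in the wild type, at 32.5 in KO and at 48.6 in 3′F. The 3′F value, with an interval of 45.3 to 52.1 RPM, lay above both WT libraries, whose intervals reached up to 40.5 and 39.2 RPM. The interval of KO, 30.0 to 35.1 RPM, lay below the value of either WT library but overlapped their intervals. The 3p arm followed with 11.7, 11.9, 8.75 and 14.3 RPM. It and the pair above were the only members at a mean of 10 RPM or more, a level that 255 miRNAs of the table reached.

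Below them came miR-669a-5p with 9.04, 11.3, 6.51 and 8.73 RPM, and miR-467c-5p, from a hairpin on chromosome 2 (10473931 to 10474027), with 5.99, 7.78, 4.998 and 5.88 RPM. In both, the mutants lay below both WT libraries, with 3′F close to WT A at 0.966 and 0.980 times its level. The other arm, miR-669a-3p, had 3.81, 5.82, 4.39 and 7.08 RPM, so that KO lay between the WT values and 3′F above them. The leading miR-466 was miR-466f-3p with 4.37, 7.29, 3.61 and 5.06 RPM, where KO lay below both WT libraries, at 0.826 times WT A and 0.495 times WT B, and 3′F lay between them. The 1.42, 2.07, 1.65 and 2.10 RPM of miR-466d-3p placed KO between the WT libraries.

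**Figure D3:**
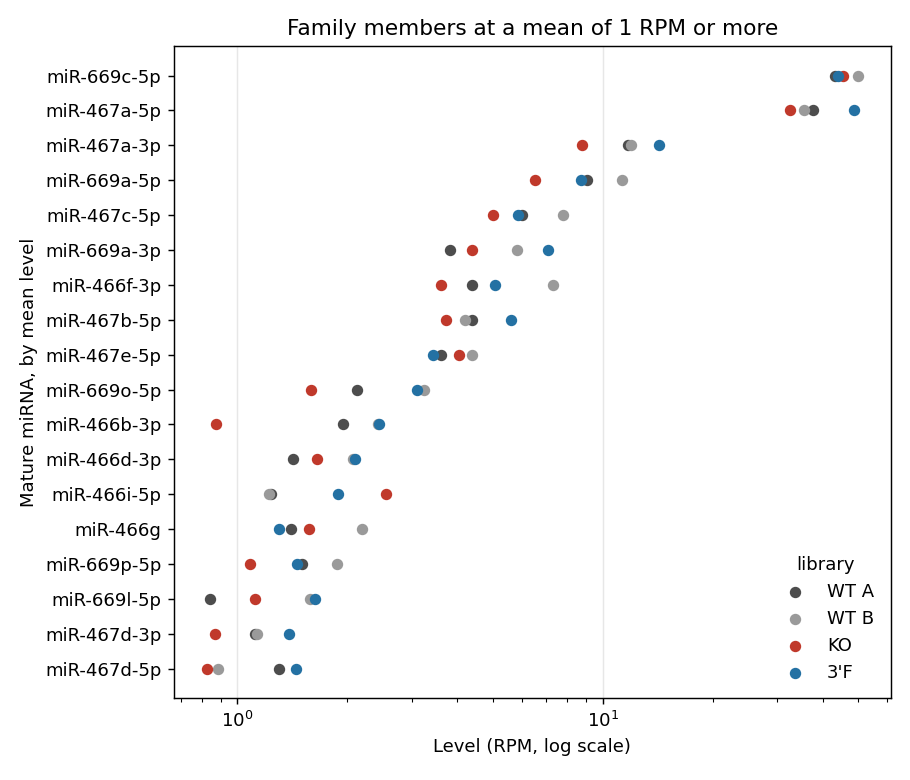
Level of each of the 18 members with a mean of at least 1 RPM (x axis, RPM, log scale), ordered by mean level (y axis), with 1 point per library. Most members span less than 2-fold between libraries, and miR-466b-3p in KO, at 0.876 RPM, stands apart to the left of the other points of its row.

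The miR-297 family was near the limit of what these depths show. Its highest member, miR-297b-5p, held 10, 13, 19 and 7 counts, or 0.586, 1.14, 0.995 and 0.432 RPM, and the intervals of these values overlapped. The name miR-297a-5p held 10.27, 2, 2 and 4 counts and miR-297a-3p held 4, 4, 3.9 and 5.9 counts. No order of libraries could be read from these 3 members at this depth.

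The arm with more counts differed between names. Among names with both arms listed and at least 40 counts over the libraries, the 5p arm was the higher in all 4 libraries for 4 of 5 of miR-467, 7 of 8 of miR-669 and the 1 of miR-297. For miR-466 it was the 3p arm in 4 of 6 names, the 5p arm in 1 (miR-466i, with 71.2%, 60.8%, 81.9% and 70.1% on the 5p side) and neither in 1 (miR-466c). Of the counts of miR-467a, 76.2%, 74.9%, 78.8% and 77.3% lay on the 5p arm. The 5p share of miR-467c was between 99.4% and 99.9%, and miR-669c was counted on that arm alone. The name miR-466f was read from the other side, with 3.86%, 1.19%, 1.43% and 1.21% of its counts on the 5p arm. The 5p share was at most 4.06% for miR-466d and between 27.3% and 40.4% for miR-466b. The arms of miR-669a were more even, with 70.4%, 65.9%, 59.7% and 55.2% on the 5p side, and both share reads with other names. Over all members, 5p arms held between 75.9% and 80.8% of the counts.

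By family, the miR-467 and miR-669 sums were close to each other and far above the others. The miR-669 sum was 65.6, 78.4, 63.3 and 70.5 RPM and the miR-467 sum 65.7, 66.0, 55.8 and 80.8 RPM. Their order changed between libraries, with miR-669 higher in WT B and KO and miR-467 higher in 3′F. The miR-466 sum was 17.2, 23.5, 15.2 and 20.3 RPM and the miR-297 sum 1.71, 2.02, 1.51 and 1.41 RPM.

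**Figure D4:**
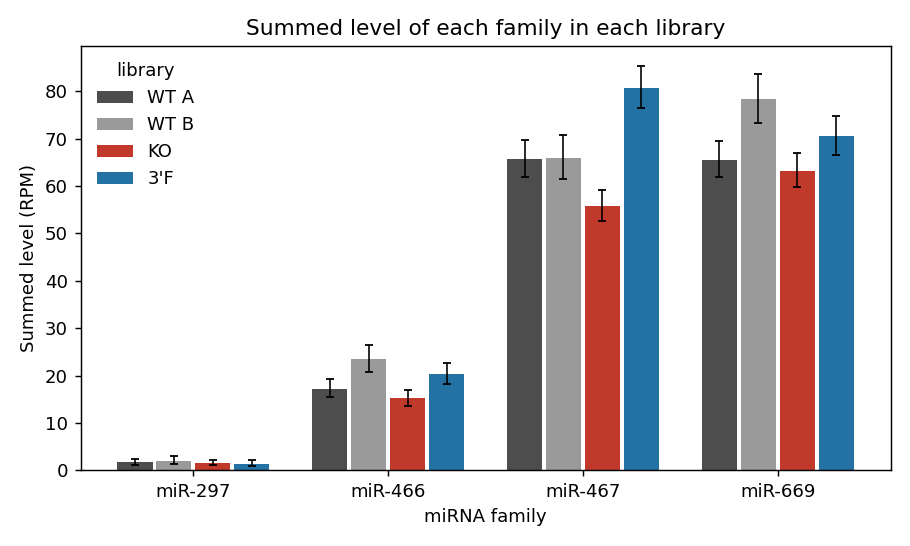
Summed level of each family (y axis, RPM) in each library (bars, grouped by family on the x axis), with 95% Wilson intervals for counting error as error bars. The miR-467 bar of 3′F at 80.8 RPM is above, and that of KO at 55.8 RPM below, both WT bars.

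The first comparison asked whether loss of mir-146a went with another level of these families. All members together stood at 136 RPM in KO, where the WT libraries had 150 (A) and 170 RPM (B), a mean of 160 ± 13.8 RPM (SD, n = 2). The null library was thus 0.903 times WT A and 0.799 times WT B, while WT B was 1.13 times WT A. On the scale of log2(RPM + 0.1), the KO sum differed from the WT mean by -0.23, and WT B differed from WT A by 0.18. The ratio to the pooled WT counts was 0.858 with an exact 95% counting interval of 0.818 to 0.901, which leaves out the spread between cultures. Of the marker sums given above, the macrophage and myeloid, the erythroid and the lymphocyte sum were also lower in KO than in either WT library. The endothelial and stromal sum was not. Within the macrophage and myeloid list, miR-223-3p and the arms of miR-511 were higher in KO than in either WT library. Of the same list, miR-21a-5p and miR-142a-3p were lower and miR-142a-5p lay between. Within the lymphocyte list, miR-342-3p and miR-150-5p were lower and miR-181a-5p was higher.

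Each family sum was lower in KO than in either WT library. The log2 differences from the WT mean were -0.41 for miR-466, -0.28 for miR-297, -0.24 for miR-467 and -0.18 for miR-669, where WT B differed from WT A by 0.44, 0.22, 0.01 and 0.26. The difference in KO thus exceeded that between the WT libraries for miR-467 and, on 28.8 counts, for miR-297, and not for the other families. The miR-297 ratio to the pooled WT counts was 0.832 with a counting interval of 0.509 to 1.34, so that no difference was detectable at this depth. The small difference between the WT libraries in the miR-467 sum joined members that differed in opposite directions, such as miR-467c-5p (0.37 from WT A to WT B) and miR-467d-5p (-0.51). With 1 KO library these differences have no replicate check. No scaling tried turned the direction of a family in KO. Against WT A alone, whose letter the KO column of the table also carries, the differences were smaller for all members (-0.15), miR-669 (-0.05), miR-466 (-0.18) and miR-297 (-0.17), and -0.23 for miR-467.

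A miRNA was called where it was at least 2-fold from WT A and from WT B in the same direction on the log2(RPM + 0.1) scale, among miRNAs with a mean of at least 1 RPM. That minimum was passed by 18 of the 80 members, which held between 90.7% and 92.9% of the members' counts, and by 445 miRNAs in all. In KO, 1 of the 18 members was called lower and 0 were called higher, against 3.15% called lower and 2.25% called higher among the 445, so that a single call is no result about the members. The median log2 difference in KO was -0.27 over the 18 members and -0.02 over the 445. Below 0 were 16 of the 18 members and 226 of the 445. Some of the 18 share reads, as described above. WT B against WT A gave a median of 0.30 over the same members and 0.09 over the 445. Above 0 were 14 of the 18 members and 280 of the 445. Between these WT libraries 0 of the members were 2-fold apart, against 2.02% of the table.

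The member called in KO was miR-466b-3p. Its levels were 1.95, 2.43, 0.876 and 2.45 RPM, so that KO alone was low, at 0.449 times WT A and 0.361 times WT B. Its reads are those of the shared set with miR-466c-3p and miR-466p-3p, which together held 50, 42, 25 and 59 reads after rounding. The set was at 1.31 RPM in KO with an interval of 0.887 to 1.93 RPM, under the lower bounds of 2.22, 2.72 and 2.82 RPM in WT A, WT B and 3′F. By edgeR's quasi-likelihood test, in which the lone KO library is taken to vary as the WT libraries do, miR-466b-3p had an adjusted p of 0.145. The call was lost with a pseudocount of 1. With 1 line per mature miRNA the name fell under the minimum of 1 RPM, and the ratios to WT A and WT B of a single line were the same as those above.

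The name miR-466i-5p, mentioned after its values were seen, lay on the other side and just short of the call. Its hairpin lies outside Sfmbt2, on chromosome 13 (17747473 to 17747593, plus strand), and its name occupies 2 lines of that hairpin. Its levels were 1.23, 1.22, 2.55 and 1.88 RPM. The null library was 2.07 times WT A and 2.08 times WT B before the pseudocount, on 48.67 counts, with an interval of 1.94 to 3.39 RPM that overlapped the interval of WT B (up to 2.06 RPM) and not that of WT A (up to 1.88 RPM). The adjusted p by edgeR was 0.186.

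**Figure D5:**
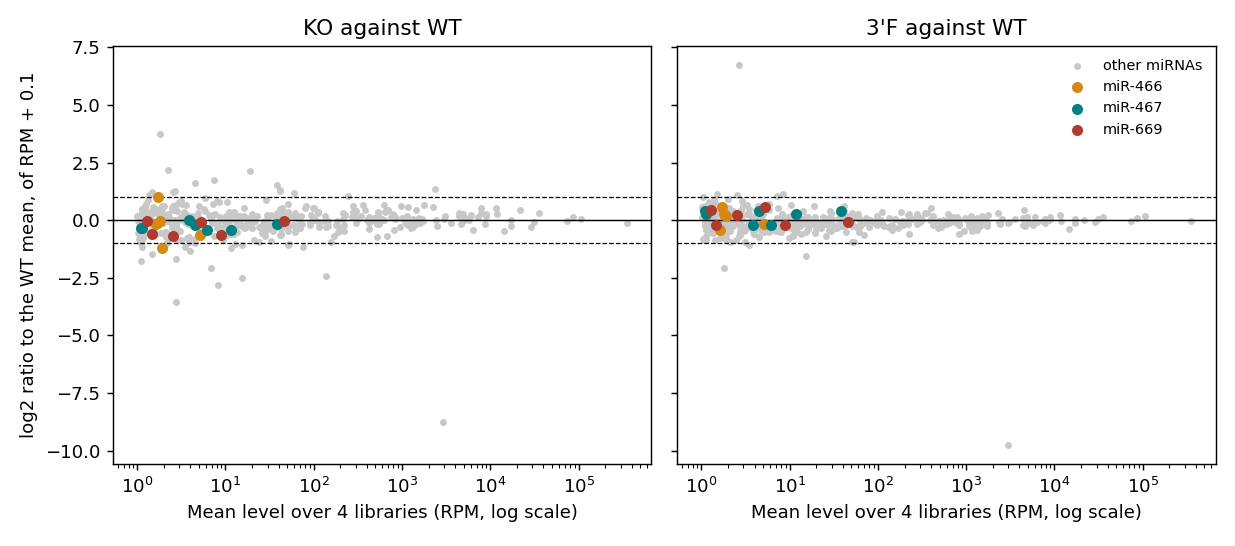
log2 ratio of KO (left) and 3′F (right) to the WT mean, of RPM + 0.1 (y axis), against mean level (x axis, RPM, log scale) for the 445 miRNAs at 1 RPM or more, with members colored by family. Members lie within the cloud of other miRNAs, and miR-466b-3p at -1.22 in KO is the only one beyond a 2-fold line (dashed).

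The second comparison asked the same of the 3′F allele against the same WT libraries, which both comparisons share. The sum over all members was 173 RPM in 3′F, a log2 difference from the WT mean of 0.12, less than the 0.18 between the WT libraries. It was 0.23 under TMM scaling and 0.19 under DESeq2's size factors. Without miR-669c-5p it was 0.19, where WT B differed from WT A by 0.16. The ratio to the pooled WT counts was 1.09 with a counting interval of 1.04 to 1.15. With 1 line per mature miRNA in place of the sum over lines, the log2 difference was -0.0064. Of the marker sums, the erythroid one and the endothelial and stromal one were lower in 3′F than in either WT library. The lymphocyte sum and the macrophage and myeloid sum lay between the WT libraries. Their part in the members' levels was not tested.

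The miR-467 sum was above both WT libraries in 3′F. It was 1.23 times WT A and 1.22 times WT B, a log2 difference of 0.29, where WT B differed from WT A by 0.01. That difference was 0.14 without miR-467a-5p and 0.12 with 1 line per mature miRNA. Like both miR-467a arms, miR-467b-5p was above both WT libraries, with 5.60 RPM in 3′F beside 4.39 and 4.18 in the wild type. Its counts were 1.17, 1.18, 1.14 and 1.15 times those of a single miR-467a-5p line, a nearly constant ratio, and whether both hold the same reads in part was not tested. Both miR-467d arms were above both WT libraries as well, with 1.44 RPM (5p) and 1.38 RPM (3p) in 3′F. The counts of miR-467d-3p, 19.05, 12.93, 16.61 and 22.36, were close to those of a single miR-467a-3p line, 19.96, 13.6, 16.7 and 23.09. Whether miR-467d-3p and miR-467a-3p hold the same reads in part was not tested either. The levels of miR-467e-5p and miR-467c-5p in 3′F, 3.43 and 5.88 RPM, were below those of both WT libraries. The log2 differences of the other sums were 0.01 for miR-466, -0.02 for miR-669 and -0.38 for miR-297, which on 22.8 counts lay below both WT libraries, and the levels of miR-466 and miR-669 lay within the range of the WT libraries. The miR-297 ratio to the pooled WT counts was 0.778 with a counting interval of 0.454 to 1.29, so that no difference was detectable at this depth. The miR-669 difference turned to 0.10 under TMM scaling, which raised every value in 3′F by 0.12 relative to WT, and to 0.05 under DESeq2's size factors. It also turned, to 0.07, without miR-669c-5p.

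In 3′F, 0 of the 18 members were called, against 0.449% called higher and 0.674% called lower among the 445 miRNAs. The median log2 difference was 0.25 over the 18 members and -0.08 over the 445. Above 0 were 11 of the 18 members and 173 of the 445. The highest of the 18 was 0.58 and the lowest -0.41. By edgeR's quasi-likelihood test, 0 members had an adjusted p under 0.05 in either comparison, where 3.38% of the 444 miRNAs tested were called in KO and 0.45% in 3′F. The number at an unadjusted p under 0.05 was 3 members in KO (miR-466b-3p, miR-466i-5p and miR-669a-5p) and 0 in 3′F, where 19.6% and 5.18% of the 444 were under that value, so that the members' share was no higher than that of the table. DESeq2's Wald test gave 0 members at an adjusted p under 0.05 in both, where 7.45% of 349 miRNAs with an adjusted p were called in KO and 0.45% of 444 in 3′F. In KO it gave no adjusted p for 8 of the 18 members, miR-466b-3p and miR-466i-5p among them.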

How the data were processed

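Small RNA of resting BMDMs was cloned with the NEBNext small RNA kit into 4 libraries. The authors deposited estimated counts with fractions, and RPM values that were found to equal the counts scaled to the total over every line. Adapters were trimmed with cutadapt 1.8.3 per the labels. The aligner, the counter, the mismatches allowed, the genome build and the miRNA release were not given in the sources used here.

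Lines of 1 mature miRNA were summed and RPM recomputed over all lines. The design had foreseen 1 line per miRNA, which loses divided reads; the sum was chosen once the divided reads were seen, and 1 line is given as an alternative. Ratios are differences of log2(RPM + 0.1) from the WT mean, which understate changes of low miRNAs. No test is a main result, as each mutant has a single library. Alternatives included edgeR (quasi-likelihood, Benjamini-Hochberg adjusted) and DESeq2 (Wald) on rounded counts. Functions were tested on simulated data. Named are the 3 highest members of each family, their other arms, called members and names sharing their lines. miR-467b-5p, miR-467d, miR-467e-5p and miR-466i-5p were named after their values were seen. Members, lists and rules were chosen with earlier results of these data known.

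The software was Python 3.11.15 (numpy 2.4.6, pandas 2.3.3, scipy 1.17.1, matplotlib 3.10.9), R 4.3.3, edgeR 4.0.16 and DESeq2 1.42.0. The letters A and B mark replicate cultures in the study's description of the table.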

Additional observations from a re-analysis of the deposited data

How the results depend on the processing

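No paired analysis was possible because 1 replicate letter alone is shared: the table's KO and 3′F columns are lettered A, like WT A, and have no B. The values without WT B below are those against WT A alone. Values are log2 differences from WT. In KO, the miR-467 sum moved from -0.24 to -0.22 with RPM over 1 line per miRNA, -0.20 under TMM, -0.19 under DESeq2's size factors, -0.26 with 1 line per miRNA and -0.33 without miR-467a-5p. In 3′F it moved from 0.29 to 0.41 under TMM, 0.37 under the size factors, 0.12 with 1 line per miRNA and 0.14 without miR-467a-5p. The miR-297 sum moved to -0.073 in KO with 1 line per miRNA, and without miR-297b-5p to -0.84 in KO and -0.026 in 3′F. The miR-669 sum in KO moved to -0.51 without miR-669c-5p. The sum of all members ranged from -0.32 to -0.15 in KO and from 0.03 to 0.20 in 3′F when 1 WT library was left out. The same gave, in KO and then 3′F, -0.39 to -0.17 and -0.49 to -0.27 for miR-297, -0.63 to -0.18 and -0.21 to 0.23 for miR-466, -0.24 to -0.23 and 0.29 to 0.30 for miR-467, and -0.31 to -0.05 and -0.15 to 0.10 for miR-669. In each of these pairs the lower value is that without WT A, and the miR-466 and miR-669 sums in 3′F change direction with the library left out. With 1 line per miRNA, the 3′F differences of all members and of miR-466 turned to -0.0064 and -0.0021.

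Members called in KO numbered 1; the count was 0 at a minimum of 10 RPM (3.92% of all miRNAs tested), with a pseudocount of 1 (3.82%), at 3-fold (2.25%), with 1 line per miRNA (5.24%), by edgeR (3.38%) and by DESeq2 (7.45%). It was 2 at 1.5-fold (14.8% of all miRNAs tested), 3 of 80 with no minimum (3.89%; adding miR-669d-5p and miR-669e-5p, both lower), 2 without WT A (9.66%; adding miR-466i-5p, higher) and 1 without WT B (8.54%). In 3′F it was 0, and 1 of 80 with no minimum (miR-466n-3p, higher; 3.34% of all). With 1 line per miRNA, the share of fractional lines went from 82.2% to 65.5% in WT B and from 86.4% to 71.2% in KO. Members detected in WT A went from 39 to 50 at 1 count, 29 at 10 counts and 34 with 1 line per miRNA. Of the alternative values 25 moved and 99 did not, where a sum moved by at least 1 SD of the WT libraries, a count by over 1.5 times, and a share out of its 95% Wilson interval. Counting 1 line per miRNA for calls and detection was added after seeing the data. Counting 1 line per distinct mature sequence was not run, because sequences were matched for 8 members only.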
